A study of Mus musculus with 2 samples.

Results

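The small RNAs described here are the isoforms of IAP piR-4868, a piRNA of the Intracisternal A particle (IAP) retrotransposon. The study listed a 27-nt probe used to detect this piRNA on Northern blots. Members were all sequences of 16 to 36 nt that share at least 16 consecutive nucleotides with the probe or with its complement. This rule found 319 distinct sequences among the 984096 of that length, and among 1132769 distinct sequences in all. Of the 319, 264 were read in the WT library, 135 in the KO library and 80 in both. RNAs with the letters of the probe's complement, which are those the probe hybridizes to, are called the piR-4868 strand (296 sequences). RNAs with the letters of the probe itself are called the probe strand (23 sequences).

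Small RNAs of whole C57BL/6 testes at embryonic day 16.5 were sequenced in 2 libraries, one for WT and the other for Hsp90α KO fetuses, each from 20 testes pooled. HSP90α is a molecular chaperone, and in the fetal testis it is found in the germ cells, which are a minority of the cells in whole testes. Each genotype had 1 library and therefore no replicate. Every interval below covers the sampling of reads only, and each test compares these 2 libraries, not the genotypes. In pooled whole testes, fewer germ cells and less piRNA per germ cell cannot be told apart. The WT library held 6409305 reads and the KO library 5589326, and counts were normalized to miRNA reads (2523084 and 2561491). At this depth, 3 reads are 1.19 per 1000000 miRNA reads in WT and 1.17 in KO. The germ cell miRNAs of the miR-290 cluster had 2024 reads in WT and 2661 in KO, a KO/WT ratio of 1.30 (95% interval 1.22 to 1.37). The gonadal Mir202 had a ratio of 1.07 (1.03 to 1.11). The part of cell composition in the results below was not tested.

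IAPs are long terminal repeat (LTR) retrotransposons and are among the most active mobile elements of the mouse. In fetal prospermatogonia, piRNAs guide the PIWI proteins MILI and MIWI2 to complementary transposon RNA. When a PIWI protein cuts a transposon RNA, the cut end becomes the 5′ end of a new piRNA, so that both RNAs overlap by 10 nt at their 5′ ends. In this ping-pong cycle the guide tends to start with uracil and the new piRNA tends to carry adenine at the 10th position. The 3′ ends of piRNAs are usually made by trimming a longer precursor, so that isoforms of one piRNA commonly share the 5′ end.

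Positions count from 1 at the 5′ end of the probe's complement, and position 0 is the base just before it. The 5 most abundant members of the piR-4868 strand are shown first, because between them they carry 639 of the 1219 reads of 24 to 33 nt on this strand in WT and 283 of 521 in KO. Capitals mark the longest stretch shared with the probe's complement.
isoform of 30 nt: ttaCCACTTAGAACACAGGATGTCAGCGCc
isoform of 29 nt: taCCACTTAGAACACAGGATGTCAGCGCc
isoform of 27 nt: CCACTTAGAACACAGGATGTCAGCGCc
isoform of 28 nt, 1 A: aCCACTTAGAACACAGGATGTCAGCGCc
isoform of 28 nt, 2 A: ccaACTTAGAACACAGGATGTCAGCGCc
All 5 ended at the same base, position 28, which lies 1 nt past the end of the probe's complement. They differed at the 5′ end. The first 4 have a single A before CTTAG and will be called the single form. The last has AA there and will be called the double form. Both forms are present in reference transcripts. The remaining sequences below stand for the mismatched variants, for the probe strand (capitals again mark the stretch shared with the probe) and for an isoform that ends further downstream.
mismatched variant of 29 nt: tactACTTAGAACACAGGATGTtggcgcc
downstream isoform of 27 nt: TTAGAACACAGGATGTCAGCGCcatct
probe strand, double form, 28 nt: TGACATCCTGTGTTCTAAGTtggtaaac
probe strand, single form, 24 nt: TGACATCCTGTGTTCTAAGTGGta
probe strand, 30 nt, mismatched: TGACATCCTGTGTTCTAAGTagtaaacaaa

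The copies of these sequences were looked up in the 141767 transcripts of GENCODE release M21 (GRCm38). No transcript held the whole complement of the probe, and 59 genes had a transcript with at least 16 consecutive nucleotides of it. The most abundant isoform (30 nt) was found whole in exons of 40 genes, at 39 locations, with 23 genes carrying the piR-4868 strand in the transcript and 17 carrying the opposite strand. It lay in the 3′ UTR of 9 of these genes, in the 5′ UTR of 1, in no coding sequence and in noncoding exons of 30. The named copies that follow were chosen after the list was seen. The 5′ UTR copy is in exon 1 of Noct, which encodes nocturnin, a protein under the control of the circadian clock, at chr3:51244919-51244948. A 3′ UTR copy is in exon 2 of the olfactory receptor gene Olfr149 at chr9:39701387-39701416. A noncoding copy is in exon 1 of 4930481A15Rik at chr19:5406757-5406786. Of the 32851 RefSeq promoter windows, 7 (0.0213%) held the 30-nt isoform on either strand. Because the copies are identical, no read can be assigned to one of them.

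The piR-4868 isoforms were less abundant in the KO library, at each length from 26 to 32 nt on the piR-4868 strand. Members of 24 to 33 nt had 1240 reads in WT and 530 in KO, that is 491 and 207 per 1000000 miRNA reads, which is a KO/WT ratio of 0.421 (95% interval 0.380 to 0.466). The piR-4868 strand had 1219 reads in WT and 521 in KO (483 and 203 per 1000000 miRNA reads), and its ratio was 0.421 (0.379 to 0.467). The probe strand had 21 and 9 reads, with a ratio of 0.422 (0.170 to 0.961). Thus the piRNA strand outnumbered its complement in both libraries, whereas the ratio on the probe strand rests on few reads. Over 16 to 36 nt the probe strand had 24 and 12 reads, and its interval reached 1 (0.493, 0.224 to 1.024). The quotient of both ratios was 1.003 (0.402 to 2.30, two-sided Fisher's exact test p = 1), an interval too wide to compare the strands closely.

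The fall of the members can be set beside that of other small RNAs. All sequences of 24 to 33 nt outside miRNA hairpins had a KO/WT ratio of 0.638, and the ratio of the IAP members was 0.660 times that of all the others (Fisher's exact test p = 2.34e-16, adjusted over 10 tests p = 2.34e-15). The others exclude only miRNAs and are not limited to piRNAs, so this quotient does not compare the members with other piRNAs. The study reported that RNAs of this length from transposons and from piRNA clusters were also reduced in the KO. Among distinct sequences whose WT and KO reads sum to 10 or more, the KO/WT ratio was below 0.5 in 30.8% of 22371 sequences outside miRNA hairpins, and in 15 of the 23 members that passed this minimum (65.2%). Most of the members have fewer reads and are not in this count. The members counted are overlapping isoforms, so they are not independent of each other. The L1 piR-1831 RNAs, found by the same rule with the other Northern probe of the study, had 69 reads in WT and 22 in KO (ratio 0.314, 0.185 to 0.514). The IAP ratio was 1.34 times the L1 ratio (0.809 to 2.30, Fisher's exact test p = 0.289), so no difference between the IAP and L1 piRNAs was detectable at this depth. The strands are not matched in this comparison, since 53 of the 69 L1 reads in WT are on the L1 probe strand (53 and 13 reads, ratio 0.242, 0.121 to 0.449). The L1 piRNA strand had 16 and 9 reads (ratio 0.554, 0.216 to 1.33). Against it the ratio of the piR-4868 strand was 0.760 times as high (0.314 to 1.96, Fisher's exact test p = 0.514), in the other direction from the pooled value.

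The individual isoforms ranged around the common value. The 30-nt isoform had 261 reads in WT and 107 in KO (ratio 0.404, 0.319 to 0.508). The 29-nt isoform had 120 and 62 reads and a ratio of 0.509 (0.368 to 0.697). The 27-nt isoform had 113 and 59 reads and a ratio of 0.514 (0.369 to 0.711). These are all below 1, and their intervals overlap. The single-form isoform of 28 nt had 89 and 35 reads (0.387, 0.254 to 0.579). The double-form isoform of 28 nt had 56 and 20 reads (0.352, 0.200 to 0.595). The order of abundance of the 5 was the same in both libraries.

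The length profile of the piR-4868 strand was highest at 30 nt, with 359 reads in WT and 144 in KO (ratio 0.395, 0.323 to 0.481). A smaller rise was at 27 nt, with 217 and 102 reads and a ratio of 0.463 (0.362 to 0.588). Between them, 28-nt RNAs had 195 and 78 reads and 29-nt RNAs 246 and 107. The dip at 28 nt is small and was not tested. From 26 to 32 nt, the ratio at single lengths lay between 0.385 and 0.467. Between 24 and 33 nt it was lowest at 25 nt, with 23 and 5 reads (0.214, 0.0636 to 0.576), and highest at 33 nt, with 20 and 15 reads (0.739, 0.352 to 1.52), where the interval reaches above 1. RNAs of 34 to 36 nt had 42 and 13 reads (0.305, 0.150 to 0.579) and those of 16 to 23 nt had 27 and 8 (0.292, 0.115 to 0.660). No member of this strand was shorter than 20 nt.

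In the size range of MILI-bound piRNAs (24 to 27 nt), all members had 326 reads in WT and 142 in KO (ratio 0.429, 0.350 to 0.524). In the range of MIWI2-bound piRNAs (28 to 32 nt) they had 894 and 372, with a ratio of 0.410 (0.362 to 0.463). The quotient of the longer over the shorter range was 0.955 (0.754 to 1.21, Fisher's exact test p = 0.722). No difference between the size ranges was detectable for the piR-4868 isoforms. For all sequences outside miRNA hairpins the ratio was 0.765 at 24 to 27 nt and 0.560 at 28 to 32 nt, given here as values without a test.

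The ends of the isoforms were not spread alike. On the piR-4868 strand at 24 to 33 nt, 861 of 1219 WT reads ended at position 28 (70.6%, Wilson interval 68.0 to 73.1) and 366 of 521 KO reads did so (70.2%, 66.2 to 74.0). The most used 5′ end, position -1, held 429 WT reads (35.2%, 32.6 to 37.9) and 175 KO reads (33.6%, 29.7 to 37.8). The 5′ ends at positions 0, 1 and 2 followed with 211, 203 and 164 reads in WT and with 93, 87 and 80 in KO. These isoforms therefore shared a 3′ end and varied at the 5′ end over 4 neighbouring positions in both libraries. A position is not the same start in both forms, because the extra A shifts the 5′ ends of the double form by 1. Position -1 is the start at TTACC in the single form and at TACCA in the double form. Of the reads ending at position 28, it held 276 single-form and 32 double-form reads in WT, and 112 and 19 in KO. No other 3′ end held more than 52 reads in WT or more than 32 in KO. Because a member must hold 16 nt of the probe, an RNA that starts far downstream or ends far upstream is not counted, and both spreads are limited by the rule.

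Reads that end at position 28 and reads that end elsewhere had KO/WT ratios of 0.419 (0.369 to 0.474) and 0.426 (0.351 to 0.516). Their quotient was 0.982 (0.780 to 1.24, Fisher's exact test p = 0.909). More sharing at the 3′ part than at the 5′ part was also found in other small RNAs of this length, which were not limited to piRNAs. For each sequence of 24 to 33 nt outside miRNA hairpins with at least 100 WT reads, the WT reads of other sequences with the same last 20 nt were compared with those with the same first 20 nt. More reads shared the 3′ part in 48.2% of 1406 sequences, in 34.6% of the 485 that start with uracil, and in 3 of the 3 members that passed the minimum. For the 30-nt isoform, 507 other reads shared the last 20 nt and 97 the first 20. For the 29-nt isoform the numbers were 648 and 30, and for the 27-nt isoform 655 and 22. These 3 members share 1 3′ end and count each other's reads, so they are not independent of each other. Their last 20 nt are the same in the single and double forms, whereas their first 20 nt are not, which favours sharing at the 3′ part.

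Among members, the probe strand had the opposite arrangement, on few reads. Of its 24-to-33-nt reads, 17 of 21 in WT (81.0%, 60.0 to 92.3) and 6 of 9 in KO started at the same base, opposite position 23. Their 3′ ends were scattered, and the most used one held 4 reads in WT and 2 in KO. The 28-nt RNA of the double form had 4 reads in WT and 2 in KO. The 24-nt RNA of the single form had 3 reads in WT and none in KO, a difference within the limit that a count of 0 allows. A 29-nt and a 25-nt RNA of the double form with the same start had 3 and 2 reads in WT and none in KO, and a 19-nt RNA had 1 read in each library. The mismatched 30-nt RNA also had 1 read in each.

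No difference in the KO/WT ratio was detectable between the single and double forms, whereas their 5′ ends differed within each library. On the piR-4868 strand at 24 to 33 nt, the single form had 862 reads in WT and 386 in KO (ratio 0.441, 0.390 to 0.498). The double form had 186 and 79 (ratio 0.418, 0.317 to 0.547), and the quotient of double over single was 0.948 (0.700 to 1.28, Fisher's exact test p = 0.769). Among WT reads of the single form ending at position 28, 276 of 653 were 30 nt long, the length of the start at TTACC (42.3%, 38.5 to 46.1). In the double form this start gives RNAs of 31 nt, which made up 2 of 128 reads (1.56%, 0.430 to 5.52). Double-form RNAs were most often 28 nt long, starting at CCAAC, in 56 of 128 reads (43.8%, 35.5 to 52.4), and the matching start of the single form, CCACT at 27 nt, held 124 of 653 (18.99%, 16.2 to 22.2). The KO library had the same order, with 38.1% of single-form reads (32.7 to 43.8) at the TTACC length against 5.66% in the double form (1.94 to 15.4), and 37.7% of double-form reads (25.9 to 51.2) at CCAAC against 21.4% at CCACT (17.1 to 26.5). The intervals of the CCAAC and CCACT shares overlapped slightly in KO and did not in WT. On the probe strand the double form was the more frequent in WT, with 13 reads against 6, and each form had 4 reads in KO.

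No read of the piR-4868 strand carried the first base of the probe's complement. Among RNAs of 24 to 33 nt, position 1 was covered by 938 reads in WT and by 392 in KO, and none had T there, which allows a share of up to 0.320% in WT and 0.765% in KO. Adenine was read instead in 777 WT and 322 KO reads (82.8% and 82.1%, T1A) and cytosine in 161 and 70 (17.2% and 17.9%, T1C). In this notation the base of the probe's complement comes first, followed by the position and the base in the read. Members were placed without gaps, and every T1C read was of the double form. The extra A of this form shifts the bases before it by 1 position, so T1C comes from that shift. The exact complement of the probe was read 0 times in either library. On the probe strand, the base of the probe opposite position 1 was read once, in the KO library. The probe's letters were taken from a text version of the list of oligonucleotides, so an error in that letter cannot be told apart from a base of the probe that differs from the reads.

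The most frequent of the other differences from the probe were at positions 3, 22, 23 and 26. C3A, which marks the double form, was present in 186 of 1144 WT reads and in 79 of 489 KO reads (16.3% and 16.2%). It comes from the extra A of that form and is not a change of base separate from T1C. C3T was present in 96 WT reads and 24 KO reads (8.39% and 4.91%). A23G was present in 62 and 16 reads (5.15% and 3.14%) and C22T in 45 and 6 (3.72% and 1.17%). G26A was present in 33 and 16 reads, with a slightly higher share in KO (2.99% and 3.39%). These shares were not tested one by one. The mismatched variant shown above carries T1A, C3T, C22T and A23G together, and it had 12 reads in WT and 6 in KO (ratio 0.493, 0.152 to 1.42). At 24 to 33 nt, C3T together with C22T was present in 38 WT reads of 9 distinct sequences and in 6 KO reads of 1 sequence. Whether sequencing error, RNA modification or copies of the IAP LTR with other bases gave these differences was not tested.

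Mismatched isoforms had lower KO/WT ratios than exact ones, but the difference did not pass the test after adjustment. Against the nearer of the single and double reference forms, reads of the piR-4868 strand with no mismatch numbered 1020 in WT and 458 in KO (ratio 0.442, 0.395 to 0.494). Reads with 1 or more mismatches numbered 199 and 63 (ratio 0.312, 0.231 to 0.416). The quotient was 0.705 (0.511 to 0.962, Fisher's exact test p = 0.0234, adjusted p = 0.0780). Reads with C3T had a ratio of 0.246 (0.151 to 0.388), and the quotient over the single form was 0.558 (0.336 to 0.897, Fisher's exact test p = 0.0122, adjusted p = 0.0609). Both comparisons were chosen after the counts were seen. They are not separate, because the C3T reads make up 96 of the 199 mismatched reads in WT and 24 of the 63 in KO. Where the only mismatch was at the last base, the reads numbered 19 and 12 (0.622, 0.275 to 1.35).

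The base composition of the isoforms differed little between the libraries. On the piR-4868 strand, uracil was the first base of 64.8% of WT reads (62.1 to 67.4) and of 63.5% of KO reads (59.3 to 67.6). Adenine was the 10th base of 72.4% (69.8 to 74.8) and 72.2% (68.2 to 75.8). Among all sequences of this length outside miRNA hairpins, the first base was uracil in 42.3% and 38.4% and the 10th base adenine in 25.7% and 24.005%. The probe strand started with uracil in 17 of 21 WT reads and 6 of 9 KO reads, and it had adenine at the 10th position in 3 and 0. Because the rule fixes the sequence, these shares follow from which ends were used.

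To look for complementary partners, reads of 24 to 33 nt were placed with up to 2 mismatches on the single and double forms of a 101-nt reference stretch around the probe. The piR-4868 strand had 1704 reads in WT and 701 in KO there (ratio 0.405, 0.371 to 0.443), and the probe strand had 157 and 58 (0.364, 0.264 to 0.495). The partners reach past the probe, and the ones most relevant to the isoforms are shown here with their first 10 nt, which pair with an RNA of the other strand, in capitals.
partner of the 5′ end at position -1, 28 nt: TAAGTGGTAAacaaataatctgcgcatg
partner of the 5′ end at position 6, 29 nt: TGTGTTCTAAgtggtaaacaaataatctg
partner of the probe-strand 5′ end at position 23, 30 nt: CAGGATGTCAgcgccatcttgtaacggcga
The first 2 are on the probe strand and the last is on the piR-4868 strand. All 3 share fewer than 16 nt with the probe and are not members.

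An overlap of 10 nt was the second most frequent in WT and the most frequent in KO. It made up 9.76% of the read-weighted pairs of 5′ ends in WT (8610 of 88256) and 9.54% in KO (1331 of 13945), among overlaps of 1 to 30 nt. In WT an overlap of 17 nt was more frequent (11.1%), and in KO an overlap of 11 nt came second (8.58%). No interval is given for weighted pairs. In WT, the 5′ end at position -1 with its partner at position 8, where 14 reads start, gave 38.9% of the 10-nt pairs, and positions 6 and 15, with 50 and 26 reads, gave 15.1%. In KO the pair of positions 0 and 9 came first (24.9%) and positions -1 and 8 gave 15.3%, on 3 probe-strand reads.

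The partners were few. The 28-nt partner of position -1 had 5 reads in WT and 1 in KO, and the 29-nt partner of position 6 had 4 reads in each library. The 30-nt partner of the probe strand had 17 and 5 reads (ratio 0.290, 0.0836 to 0.818). The 27-nt downstream isoform that starts at position 6 had 19 and 11 reads (0.570, 0.245 to 1.26). Of these 4 RNAs, only the 30-nt partner had an interval that stays below 1.

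RNAs of 16 and 19 nt, the lengths that the study describes as by-products of the ping-pong cycle, were rare on the stretch. They were also placed with up to 2 mismatches, and the 16-nt counts of both libraries include mismatched reads. The most abundant of each length are shown.
16 nt, probe strand: acaagatggcgctgac
19 nt, piR-4868 strand: cagattatttgtttaccac
At 16 nt there were 6 reads in WT and 7 in KO on the probe strand (KO/WT ratio 1.15, 0.331 to 4.14) and none in either library on the piR-4868 strand. At 19 nt there were 6 and 5 reads on the piR-4868 strand (0.821, 0.198 to 3.23) and 7 and 6 on the probe strand (0.844, 0.234 to 2.93). The intervals hold both no change and the ratio of the longer isoforms, so a difference from these was not detectable at this depth. The 19-nt RNAs of the piR-4868 strand ended just upstream of a 24-to-33-nt RNA of the same strand in 5 of 6 reads in WT and 5 of 5 in KO. On the probe strand this held for 4 of 7 and 2 of 6 of the 19-nt reads, and for 2 of 6 and 5 of 7 of the 16-nt reads. No share expected from position alone was computed for these counts. The 24-to-33-nt members of the piR-4868 strand used 18 different 5′ ends in each library, so many positions meet the condition.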

How the data were processed

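After adaptor clipping, the authors deposited each distinct sequence of 11 to 48 nt with its raw read count, without normalization or mapping. The libraries were made with the TruSeq Small RNA kit and carry no molecular identifiers, so intervals cover counting error only. The submitters' processing notes name the mouse build mm9, and the deposited counts have no coordinates. Coordinates here are from GENCODE M21 (GRCm38), given for the piRNA's position in the transcript's exon.

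Counts were normalized to reads of at least 16 nt that match one of the 2202 GENCODE miRNA hairpins on the sense strand. Mir10b was the most abundant miRNA. Intervals are at 95%, by the Clopper-Pearson method for KO/WT ratios and by Wilson's for shares, and quotients of ratios were compared with two-sided Fisher's exact tests, adjusted over 10 tests by the Benjamini-Hochberg method. A member was placed on the diagonal of its longest shared run with the probe. Pairs of 5′ ends were weighted by reads and counted within the same form.

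The members and the comparisons were chosen with earlier results of these data known. Sequences named are the 5 most abundant members of each strand, the most abundant mismatched variant of each strand, partner, and 16-nt and 19-nt RNA. The member search and the intervals were tested on simulated data. Alternatives covered the normalizing total, the shared run, a minimum of 2 reads, distinct sequences, length limits and mismatches. Scripts used Python 3.11.15, numpy 2.4.6 and scipy 1.17.1. The probe was used only as a search key.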

Additional observations from a re-analysis of the deposited data

Results flagged for a closer look

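Signals were also present in sequences outside the main comparisons. Reads of 37 to 48 nt that share at least 16 nt with the probe or its complement numbered 16 in WT and 4 in KO (KO/WT ratio 0.246, 0.0599 to 0.763). Reads of 24 to 33 nt on the 101-nt reference stretch that are not members numbered 673 in WT and 244 in KO, a ratio of 0.357 (0.307 to 0.414). The most abundant of these is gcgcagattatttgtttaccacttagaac, on the piR-4868 strand from position -16 to 12, with 182 reads in WT and 67 in KO (0.363, 0.270 to 0.482).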

How the results depend on the processing

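The KO/WT ratios of all members, of the piR-4868 strand and of the probe strand stayed below 1 in every setting tried. For the probe strand, however, the upper limit of the interval passed 1 when normalized to all reads (1.12), with distinct sequences (1.58), at 16 to 36 nt (1.024), with no mismatch other than at position 1 (1.85) and without any mismatch (38.4). Normalized to all reads, the ratio was 0.490 for all members and 0.490 for the piR-4868 strand. With each distinct sequence counted once it was 0.503 and 0.497, and without any mismatch to the probe 0.526 and 0.529. The last setting drops every read of the piR-4868 strand that covers position 1, because none has the probe's base there. It left 205 and 110 reads on that strand, and 1 probe-strand read in WT and none in KO (ratio 0). The quotient of probe strand over piR-4868 strand was below 1 with a shared run of 20 nt (0.799), with at least 2 reads (0.651) and with no mismatch other than at position 1 (0.934), a setting chosen after seeing the data. The quotient of 28 to 32 nt over 24 to 27 nt was above 1 with distinct sequences (1.33) and without mismatches (1.67). The latter rests on 24 WT and 20 KO reads at 28 to 32 nt. The IAP over L1 quotient was below 1 with distinct sequences (0.985) and with a run of 20 nt (0.561). None of these quotients passed its test in any setting. The cause of these changes was not tested. With distinct sequences, the share of the main 5′ end was 20.6% in WT and 18.2% in KO. The 10-nt share in WT was 11.5% with at least 2 reads, 8.63% with distinct sequences, 11.5% without mismatches and 10.8% without the largest 5′-end pair. The other 32 values under alternatives kept their direction and their side of the threshold or, for values without a test, moved within their interval (for pair shares, by at most 10%). No paired analysis was possible because each genotype had 1 library, and no library could be left out. Depth limits the probe strand, the L1 piRNAs and the 16-nt and 19-nt RNAs most.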
